A study of Mus musculus with 6 samples.

Results

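Cadherins and catenins, the proteins that hold epithelial cells together at adherens junctions, were examined in the RNA of T1 and T2 cells. The 10 genes, out of 24129 gene names in the table, were taken by symbol: the cadherins Cdh1, Cdh2, Cdh3, Cdh6, Cdh11 and Cdh17, and the catenin family genes Ctnna1, Ctnnb1, Ctnnd1 and Ctnnal1. All 10 were found. T1 cells (4T1A in the labels, 3 replicates) had low GFP, were adherent, proliferated fast and were aggressive in mice. T2 cells (4T1NA, 3 replicates) had high GFP and were round, loosely adherent, slower to proliferate and less aggressive. Both came from 4T1GFP cells, a BALB/c mouse mammary carcinoma line tagged with green fluorescent protein, that had grown as a mammary tumor, and both grew in the same serum-containing medium. The cells outgrew a culture of cancer associated fibroblasts, sorted from that tumor by CD140a (encoded by Pdgfra), and were then separated by GFP level. Each population was isolated once, so the replicates are replicates of 1 isolate. T2 cells were passaged like a suspension culture without trypsin, so the way of passaging and the population cannot be told apart.

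A classical cadherin spans the membrane and binds the same cadherin on the neighbouring cell. Its cytoplasmic tail holds beta-catenin and p120-catenin, and beta-catenin holds alpha-catenin, which connects the complex to actin. Beta-catenin outside the junction also acts in the nucleus as a coactivator in Wnt signalling. In mammary epithelium the main cadherins are E-Cadherin in luminal cells and P-cadherin in myoepithelial cells, and a change from E-Cadherin to N-cadherin is a textbook sign of epithelial-mesenchymal transition.

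The libraries held between 18133227 and 20839686 reads on genes, so 1 read was worth between 0.928 and 1.06 normalized counts. A gene without a read could still hold up to 3 reads in a library. A 0 can also be a failed count: Gapdh, used by every cell, had 1 read over the 6 libraries and Ndufs5 had 0. A gene without reads is therefore described as listed at 0. Genes averaging 10 or more normalized counts over the 6 libraries numbered 11514, and 49.5% of them passed an adjusted p-value of 0.01 in limma (Benjamini-Hochberg). With a log2 fold change beyond 2 as well, 8.37% did, and in 68.1% of the genes the 3 T1 values did not overlap the 3 T2 values. These shares are the background for every count given here. P-values measure the spread between these replicates. For a single value, the smallest exact permutation p-value of 3 replicates against 3 is 0.1.

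The T1 and T2 cells differed in the proportions of their cadherin RNA, with Cdh1 higher in T1 cells and Cdh17 higher in T2 cells. Of the 10 genes, 6 had enough reads to be compared, 5 of these passed this threshold (background 49.5%), and Cdh1 and Cdh17 also passed the log2 fold change filter of 2. Of the 5, Cdh1 alone was higher in T1 cells (background 25.1%), whereas Cdh17, Ctnnb1, Ctnnd1 and Ctnnal1 were lower there (background 24.4%). In each of the 6 genes compared, Ctnna1 included, the T1 and T2 values did not overlap (background 68.1%). Of the other 4 genes, Cdh3 had a few reads and Cdh2, Cdh6 and Cdh11 were listed at 0 in all 6 libraries.

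**Figure D1:**
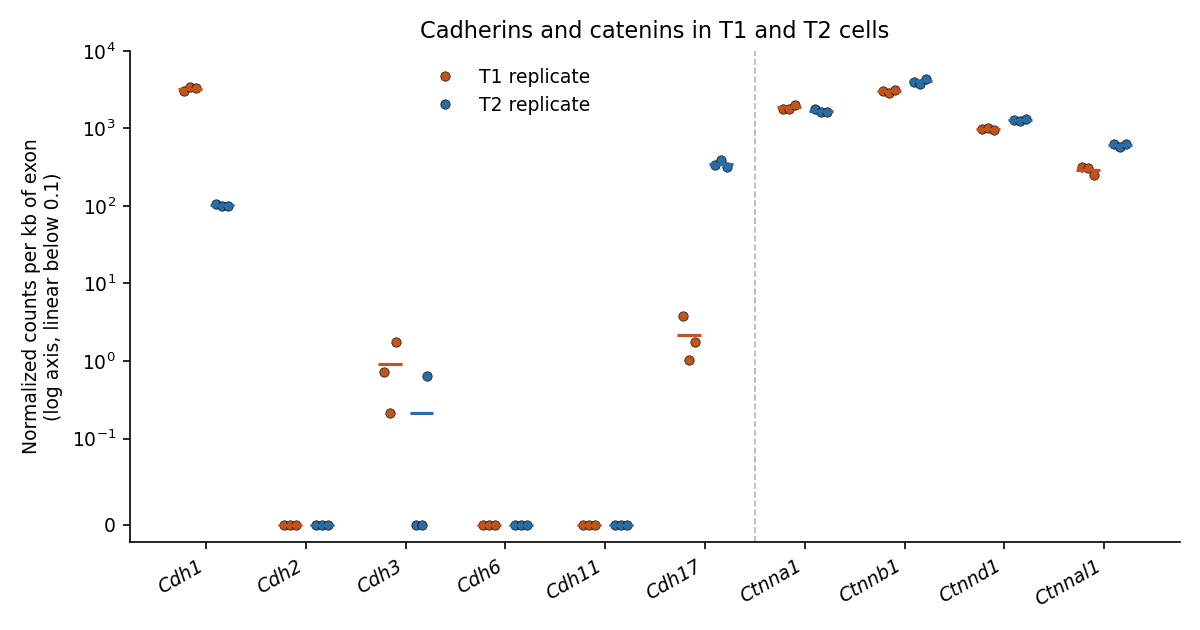
Level of each cadherin and catenin gene in normalized counts per kb of exon (vertical axis, logarithmic above 0.1 and linear below), with 1 point per replicate and a line at the mean of the 3 T1 (orange) or T2 (blue) replicates. Cdh1 is the highest of these cadherins in T1 cells (mean 3224) and Cdh17 in T2 cells (mean 348). Cdh2, Cdh6 and Cdh11 lie at 0. Each catenin family gene, to the right of the dashed line, differs less between the populations than Cdh1 and Cdh17 do.

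Cdh1 encodes E-Cadherin, the classical cadherin of epithelia. Its 3 T1 libraries had 13726, 15461 and 15057 normalized counts and its 3 T2 libraries 484, 460 and 453. All T1 values lay far above all T2 values, and the T2 values had a mean of 465 ± 16.2 (SD, n = 3). The mean in T1 cells was 31.7 times that in T2 cells. The log2 fold change was 4.98 (standard error 0.08, 95% interval 4.81 to 5.15, adjusted p = 7.63e-11, limma with Benjamini-Hochberg adjustment). The T2 libraries still held 494, 449 and 488 reads of Cdh1, well above a floor of 3 reads. In RNA from bulk cultures, fewer cells that carry a transcript and less of it in each cell cannot be told apart.

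Cdh17 encodes LI-cadherin, best known from the intestine, whose short cytoplasmic tail does not bind catenins. The gene lies on chromosome 4 of mm10 from 11758147 to 11817895. It ran opposite to Cdh1, with 16.9, 4.65 and 7.81 normalized counts in the T1 libraries (16, 5 and 8 reads) and 1504, 1734 and 1433 in the T2 libraries. The T1 libraries differed more from each other in proportion than the T2 libraries did, and few reads stood behind them. Whether this spread is more than counting error was not tested. The mean was 159 times higher in T2 cells, and the log2 fold change was -7.33 (standard error 0.34, 95% interval -8.10 to -6.57, adjusted p = 6.24e-08, limma with Benjamini-Hochberg adjustment). On this log2(normalized count + 1) scale the change of a gene with few reads is understated.

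The other 4 cadherins could not be compared. Cdh3 encodes P-cadherin and lies beside Cdh1 on chromosome 8, ending 46.1 kb before Cdh1 starts. It had 3.17, 0.930 and 7.81 normalized counts in T1 cells, from 3, 1 and 8 reads, and 0, 0 and 2.78 in T2 cells, from 0, 0 and 3 reads. The populations overlapped, and without the filter on low values its log2 fold change of 1.41 had an adjusted p-value of 0.108 (limma). Any difference in Cdh3 was not detectable at this depth. Cdh2 (N-cadherin, typical of mesenchymal and neural cells), Cdh6 (K-cadherin) and Cdh11 (OB-cadherin, typical of fibroblasts and osteoblasts) were listed at 0 in every library. Whether a 0 stands for absent RNA cannot be read from the table.

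The cadherin family was also read as a whole. Of 23 genes named Cdh with a number, 14 had no read in any library and 4 had enough reads to be compared: Cdh1, Cdh17, Cdh23 and Cdh24. Cdh24 encodes a type II cadherin that binds catenins. It had 554, 455 and 529 normalized counts in T1 cells and 265, 292 and 223 in T2 cells, a log2 fold change of 0.98 (adjusted p = 0.000142, limma). Cdh23 encodes a long cadherin known from the tip links of inner ear hair cells. It had 103, 110 and 120 normalized counts in T1 cells and 3.92, 8.19 and 2.78 in T2 cells, a log2 fold change of 4.33 (adjusted p = 2.82e-06, limma). Both were higher in T1 cells without overlap, which leaves Cdh17 as the 1 compared Cdh gene that was higher in T2 cells.

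Levels of different genes can be compared once divided by gene length, here the kb of exonic sequence. On that scale Cdh1 made up 99.85%, 99.96% and 99.89% of the summed level of the 6 cadherins in the T1 libraries, and 23.9%, 20.6% and 23.6% in the T2 libraries. Cdh17 made up 0.0699 ± 0.0498% in T1 against 77.3 ± 1.87% in T2 cells (SD, n = 3 each). The makeup of T2 cells was therefore mostly Cdh17, with Cdh1 as the remainder, and every T1 value lay apart from every T2 value (two-sided exact permutation p = 0.1, the smallest the design allows). The summed cadherin level was 3227 ± 197 normalized counts per kb in T1 against 450.0 ± 34.9 in T2 cells (SD, n = 3 each). Over all 23 Cdh genes, Cdh24 took 14.2 ± 0.840% of the summed level in T2 cells and 4.37 ± 0.654% in T1 cells, although its own level was lower in T2 cells.

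**Figure D2:**
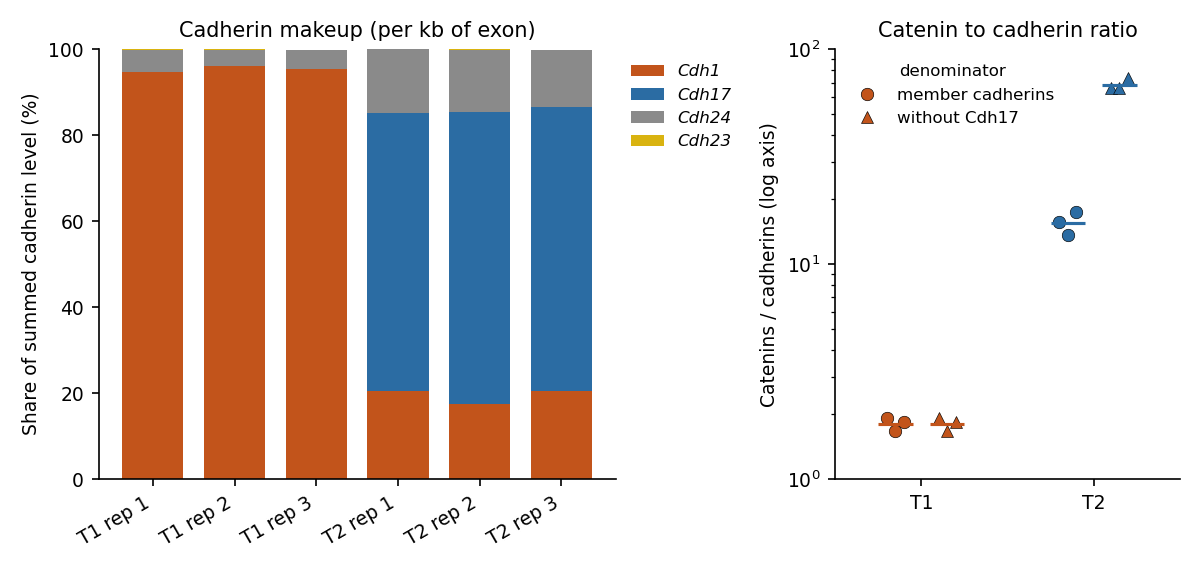
Left, share of Cdh1, Cdh17, Cdh24 and Cdh23 in the summed level of all 23 Cdh genes (percent of normalized counts per kb of exon), with 1 bar per library. Right, ratio of summed Ctnna1, Ctnnb1 and Ctnnd1 to summed cadherins on a log axis, with 1 point per replicate and a line at the mean (circles, over the 6 cadherins; triangles, without Cdh17). Cdh1 fills 95.3% of the T1 bars on average and Cdh17 66.3% of the T2 bars, and the ratio over the 6 cadherins is 1.81 in T1 cells against 15.6 in T2 cells.

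The 4 catenin family genes had log2 fold changes between -1.07 and 0.15. Ctnna1 encodes alpha-E-catenin, the actin link of the complex. It had 11378, 11462 and 12982 normalized counts in T1 cells and 11283, 10503 and 10456 in T2 cells. Its lowest T1 value was barely above its highest T2 value. The log2 fold change of 0.15 did not pass the threshold, with a 95% interval from -0.02 to 0.32 (adjusted p = 0.115, limma with Benjamini-Hochberg adjustment). An annotated gene on the other strand, Lrrtm2, overlaps its exons, and had at most 1 read in a library.

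Ctnnb1 encodes beta-catenin and lies on chromosome 9 from 120929216 to 120960507. It had 15793, 14774 and 15987 normalized counts in T1 cells and 20473, 19635 and 22663 in T2 cells. All T2 values were above all T1 values, with a log2 fold change of -0.43 (95% interval -0.60 to -0.26, adjusted p = 0.000774, limma). Its exons overlap those of Ulk4 on the other strand, which was itself higher in T2 cells (62.4 ± 11.2 against 174.5 ± 7.69 normalized counts, SD, n = 3 each). The strand setting of the read counting is not given in the sources used here. The reads counted on Ulk4 were far fewer than those counted on Ctnnb1. How many reads in the shared exons went to either gene or were dropped cannot be read from these counts.

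Ctnnd1 encodes p120-catenin, which holds cadherins at the membrane, and lies on chromosome 2 from 84600071 to 84650765. It had 7235, 7399 and 6977 normalized counts in T1 cells and 9300, 9101 and 9681 in T2 cells. The T2 values were again all higher, with a log2 fold change of -0.38 (95% interval -0.53 to -0.23, adjusted p = 0.000646, limma). An annotated gene on the same strand, Gm28635, shares exon positions with Ctnnd1, so reads there may be split or dropped in counting. The proportion of p120-catenin isoforms cannot be read from counts per gene.

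Ctnnal1 encodes alpha-catulin, a relative of alpha-catenin and vinculin, and lies on chromosome 4 from 56810935 to 56865188. It had 2438, 2380 and 1904 normalized counts in T1 cells and 4748, 4426 and 4851 in T2 cells. The T2 mean was 2.09 times the T1 mean, with a log2 fold change of -1.07 (95% interval -1.29 to -0.85, adjusted p = 7.85e-06, limma). It was the catenin family gene with the largest change among the 4 compared here.

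Ordered by level per kb, Cdh1 came first in T1 cells, with 3224 ± 199 normalized counts per kb (SD, n = 3), next to Ctnnb1 with 2989 ± 125. The replicates of these neighbours overlapped. Ctnna1 followed with 1858 ± 140, then Ctnnd1 with 984 ± 29.0 and Ctnnal1 with 292 ± 38.2. In T2 cells Ctnnb1 came first with 4030 ± 301, followed by Ctnna1 with 1673 ± 72.3, Ctnnd1 with 1279 ± 40.2 and Ctnnal1 with 610 ± 28.9. Cdh17 with 348 ± 35.2 and Cdh1 with 102 ± 3.55 came after all 4 of them. By its mean per kb of exon, Cdh1 stood above every catenin in T1 cells and below every catenin in T2 cells. Its first place in T1 cells depends on the length used. Ctnnb1 had the higher T1 mean (15518 against 14748 normalized counts) and the shorter coding sequence (2355 against 2652 bases). By coding length Ctnnb1 therefore came before Cdh1 in T1 cells.

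The sum of Ctnna1, Ctnnb1 and Ctnnd1 was 5832 ± 208 normalized counts per kb in T1 against 6982 ± 328 in T2 cells (SD, n = 3 each). The catenin to cadherin ratio was 1.93, 1.67 and 1.84 in the T1 libraries and 15.8, 13.6 and 17.4 in the T2 libraries. The mean ratio was 8.62 times higher in T2 cells, and the populations did not overlap (two-sided exact permutation p = 0.1, the smallest the design allows). Without Cdh17, which lacks a catenin-binding tail, the ratio in T2 cells was 68.5 ± 4.24 (SD, n = 3), an alternative chosen after seeing the data. Cdh24, which binds catenins, is not in that denominator. In T2 cells Cdh24 stood at 74.5 ± 9.99 normalized counts per kb, against 102 ± 3.55 for Cdh1 (SD, n = 3 each). A ratio that counted Cdh24 as well would be lower and was not computed. These are ratios of RNA and not of protein.

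The catenins also shifted among themselves. Ctnnb1 stood at 1.61 ± 0.0980 times Ctnna1 per kb in T1 cells and 2.41 ± 0.235 times in T2 cells (SD, n = 3 each). For Ctnnd1 over Ctnna1 the ratio was 0.532 ± 0.0525 and 0.766 ± 0.0448. Both ratios lay apart between the populations (exact permutation test, two-sided p = 0.1 each, 4 such ratios computed). Ctnnal1 over Ctnna1 was 0.159 ± 0.0312 in T1 against 0.365 ± 0.0207 in T2 cells, also without overlap.

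RefSeq promoter sequences (GRCm38.p6, the build of mm10) were matched for 4 of the 10 genes, Cdh6, Ctnnb1, Ctnnd1 and Ctnnal1. The 250 bases before the start site are shown for the 3 catenin family genes that were lower in T1 cells together. Where a gene had several entries, the one closest to the most annotated transcript starts was taken. Capitals mark the GC box GGGCGG or its reverse complement CCGCCC. The E-box CAGGTG and the TCF/LEF motif CTTTGAT, searched on both strands, have no match in these windows.
Ctnnb1 (chr9:120933150-120933399, plus strand): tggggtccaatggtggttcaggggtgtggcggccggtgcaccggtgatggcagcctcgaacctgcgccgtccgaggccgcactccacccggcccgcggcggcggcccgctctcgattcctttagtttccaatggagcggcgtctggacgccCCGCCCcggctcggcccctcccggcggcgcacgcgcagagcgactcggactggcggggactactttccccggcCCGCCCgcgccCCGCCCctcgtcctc
Ctnnd1 (chr2:84650741-84650990, minus strand): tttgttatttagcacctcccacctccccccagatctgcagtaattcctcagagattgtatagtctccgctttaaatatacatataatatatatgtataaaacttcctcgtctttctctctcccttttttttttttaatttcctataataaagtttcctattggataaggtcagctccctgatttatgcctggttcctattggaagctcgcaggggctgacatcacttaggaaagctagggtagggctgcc
Ctnnal1 (chr4:56865212-56865461, minus strand): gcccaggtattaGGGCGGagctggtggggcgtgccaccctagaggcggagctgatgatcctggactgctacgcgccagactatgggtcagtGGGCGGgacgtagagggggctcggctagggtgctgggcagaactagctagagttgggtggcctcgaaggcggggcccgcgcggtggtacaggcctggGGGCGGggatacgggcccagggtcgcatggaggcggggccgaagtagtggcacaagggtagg
Ctnnb1 and Ctnnal1 hold 3 GC boxes each and Ctnnd1 holds 0. Among 32851 mouse promoter windows of the same length, 32.7% hold a GC box, 17.2% the E-box and 3.21% the TCF/LEF motif. The GC content was 74.8% for Ctnnb1, 68.4% for Ctnnal1 and 40% for Ctnnd1, against a median of 52.4% over all windows. Ctnnb1 and Ctnnal1 thus both held GC boxes and lay above the median in GC content, whereas Ctnnd1 held no GC box and lay below it. The start site used lay within 100 bases of 3 of 15 annotated transcript starts for Ctnnb1. For Ctnnd1 this was 22 of 30, and for Ctnnal1 3 of 9.

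Of 8 other genes of the catenin family, 5 were compared and 1 differed (20% called, background 49.5%). This was Jup, which encodes plakoglobin, a close relative of beta-catenin found in both adherens junctions and desmosomes. It was higher in T1 cells, the opposite of Ctnnb1, with 2448, 2453 and 2980 normalized counts against 1653, 1459 and 1332 in T2 cells, a log2 fold change of 0.83 (adjusted p = 8.02e-05, limma). Jup reached 0.136 ± 0.0128 of the level of Ctnnb1 per kb in T1 against 0.0575 ± 0.00912 in T2 cells (SD, n = 3 each), without overlap. Arvcf and Pkp4, relatives of p120-catenin, had log2 fold changes of 0.25 and 0.18 that did not pass the threshold (adjusted p = 0.168 and 0.0528, limma).

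Among 26 partners of the adherens junction, 22 were compared, of which 10 were higher in T1 cells, 4 were lower and 8 did not pass. That is 63.6% called, against a background of 49.5%, with a median log2 fold change of 0.17 against -0.01 over all genes. The largest changes were those of Ajuba, a LIM protein at junctions and a regulator of Hippo signalling, of Camsap3, which anchors microtubule minus ends at junctions, and of Shroom3, which drives apical constriction. Ajuba had 6119 ± 272 normalized counts in T1 against 721 ± 99.5 in T2 cells (SD, n = 3 each), which gave a log2 fold change of 3.09. Camsap3 and Shroom3 had log2 fold changes of 2.93 and 2.55. All 3 were higher in T1 cells.

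The actin side of the complex moved less. Vcl, which encodes vinculin and binds stretched alpha-catenin, had a log2 fold change of 0.43 (adjusted p = 0.000348, limma). The nectins, immunoglobulin-like adhesion molecules that work beside cadherins, went in different directions. Pvrl3 (nectin-3) was lower in T1 cells, with 497 ± 5.64 against 1431 ± 55.7 normalized counts (SD, n = 3 each) and a log2 fold change of -1.52. Beyond the naming rule and chosen after their values were seen, Pvrl1 was also lower in T1 cells with -0.99, while Pvrl2 was higher with 0.94. Mllt4, which encodes the nectin-binding protein afadin and was likewise chosen after its values were seen, was higher in T1 cells with 0.82.

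**Figure D3:**
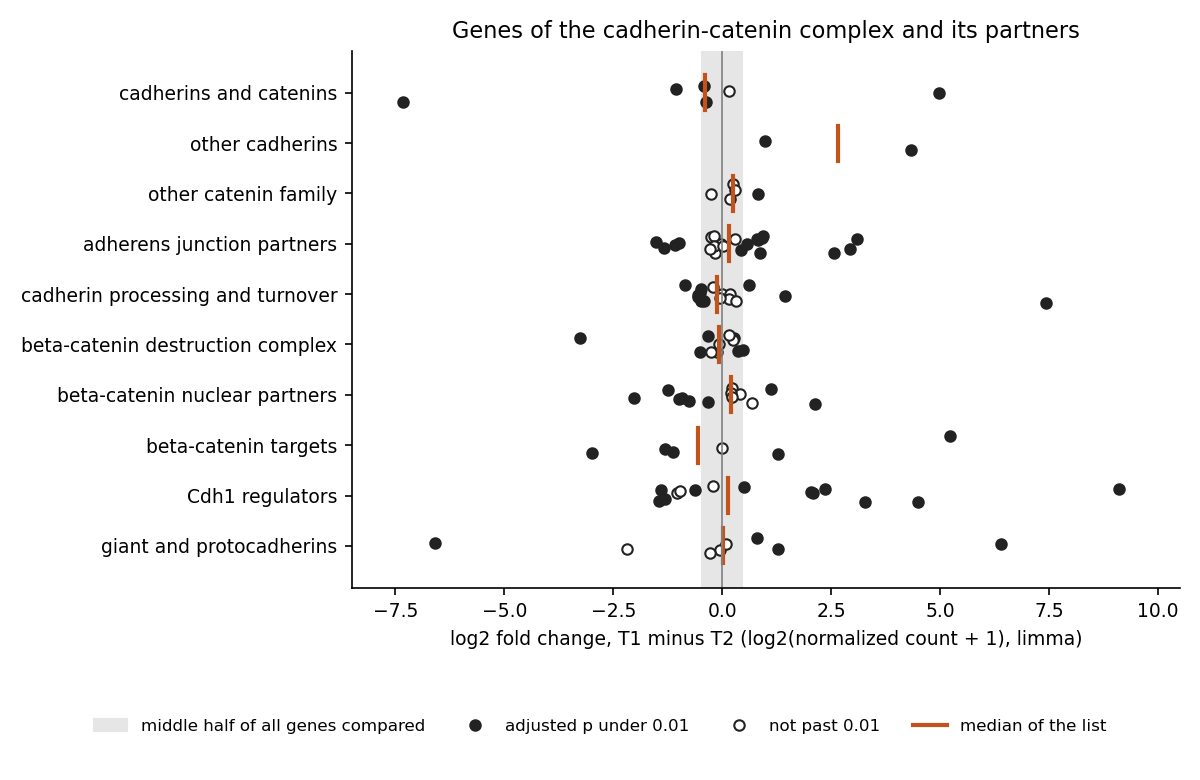
Log2 fold change of each compared gene, T1 minus T2 (horizontal axis, limma), by gene list, with filled points where the adjusted p-value passed 0.01, an orange bar at the median of the list and a grey band from -0.46 to 0.44 that holds the middle 50% of all genes compared. Cdh1 and Cdh17 stand at the ends of the first line, and the medians of most lists lie inside the band.

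Genes that process or remove cadherins, 18 in number, gave 16 compared, of which 3 were higher and 7 lower in T1 cells. That is 62.5% called, against a background of 49.5%. Adam10, the protease that sheds the E-Cadherin ectodomain, had 2388 ± 141 normalized counts in T1 against 4343 ± 308 in T2 cells (SD, n = 3 each), which gave a log2 fold change of -0.86 (adjusted p = 8.29e-06, limma). Htra1, a secreted serine protease, was higher in T1 cells with 1.43, and Cbll1, which encodes the E-Cadherin ubiquitin ligase Hakai, with 0.61. Pcsk6, a proprotein convertase, had 273 ± 44.0 normalized counts in T1 cells and 3, 0 and 0 reads in the T2 libraries. Furin, the convertase best known for trimming the E-Cadherin precursor, had a log2 fold change of -0.00 (adjusted p = 0.963, limma) and was named after its values were seen.

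The destruction complex, which marks free beta-catenin for degradation, had 11 of 12 genes compared, with 3 higher and 3 lower in T1 cells. The share called was 54.5%, near the background of 49.5%. Apc2 had 47.7 ± 3.62 normalized counts in T1 against 469 ± 55.5 in T2 cells (SD, n = 3 each), which gave a log2 fold change of -3.27. The other 5 called genes had smaller changes, with Apc at 0.48, Gsk3a at 0.35 and Amer1 at -0.51. Amer1 was lost in 7 of the alternatives run. Gsk3a was lost without T1 replicate 2, T2 replicate 1 or T2 replicate 3 (adjusted p = 0.0116, 0.0124 and 0.0129, limma). It was also lost without the variance trend (adjusted p = 0.0111, limma). Csnk1a1 and Fbxw11, named after their values were seen, had 0.26 and -0.33 (adjusted p = 0.00706 and 0.00600, limma). The count of 6 fell to 3 without T1 replicate 1, T2 replicate 1 or T2 replicate 2, and to 2 without T1 replicate 2, without T2 replicate 3 or without the variance trend.

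Partners of beta-catenin in the nucleus gave 13 compared of 14, with 2 higher and 6 lower in T1 cells (61.5% called, background 49.5%). Tcf7l2, a DNA-binding partner, was lower in T1 cells with 214 ± 28.3 against 874 ± 94.9 normalized counts (SD, n = 3 each), which gave a log2 fold change of -2.03. Pygo2, a coactivator, was lower with -1.24. The 4 Groucho corepressors of the list split: Tle1 and Tle4 were higher in T1 cells with 1.13 and 2.13, whereas Tle2 and Tle3, named after their values were seen, were lower with -0.92 and -0.77. Of 12 genes often used as targets of beta-catenin, 6 were compared, and 2 were higher and 3 lower in T1 cells (83.3% called, background 49.5%). Axin2, Lgr5, Nkd1, Sp5 and Dkk1 were listed at 0 in all libraries. Rnf43 had 167 ± 23.5 and 3.83 ± 2.35 normalized counts in T1 and T2 cells (SD, n = 3 each), Tnfrsf19 5.63 ± 1.67 and 57.6 ± 36.9, Myc 7445 ± 1336 and 3063 ± 329, and Ccnd1 21577 ± 76.0 and 53906 ± 2093. Each of these 4 differed, and their directions were mixed.

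Regulators of Cdh1 gave 14 compared of 16, with 7 higher and 4 lower in T1 cells (78.6% called, background 49.5%). Esrp1 (an epithelial splicing factor), Ovol1, Grhl1 and Ovol2 (epithelial transcription factors) showed the largest changes, and each was higher in T1 cells, among them Esrp1 with a log2 fold change of 9.11, Grhl1 with 3.28 and Ovol2 with 2.35. Ovol1 averaged 182 ± 19.1 normalized counts in T1 against 7.20 ± 1.78 in T2 cells (SD, n = 3 each). The value of Esrp1 depends on the pseudocount, since its T2 libraries held 1 read in all. Of the repressors of Cdh1, Zeb2, Twist1 and Tcf3 were lower in T1 cells, with log2 fold changes of -1.41, -1.44 and -0.63 (adjusted p = 3.5e-06, 1.51e-06 and 0.00036, limma). Snai1 was at -1.04 and Tcf4 at -0.21, and neither passed (adjusted p = 0.0182 and 0.0886, limma). Gata3, the other regulator lower in T1 cells, had a log2 fold change of -1.32 (adjusted p = 4.40e-05, limma). Zeb2, Twist1, Tcf3, Tcf4, Snai1 and Gata3 were named after their values were seen. Snai2 was listed at 0 in every library. Zeb1 had 10.6, 13.0 and 9.76 normalized counts in T1 libraries and 1.96, 1.02 and 2.78 in T2 libraries, below the filter on low values. Without that filter Zeb1 was higher in T1 cells, with a log2 fold change of 2.09 (adjusted p = 0.00126, limma), from 34 reads against 6.

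Markers of other cell types were read beside the cadherins. None of 8 endothelial genes was compared, and their sum stayed between 0 and 16.9 normalized counts in every library. Of 8 leukocyte genes, 2 were compared and 1 differed (50% called, background 49.5%). The 8 genes summed to 385 to 463 normalized counts in T1 libraries and 171 to 208 in T2 libraries. Cd14 was higher in T1 cells, with 340.2 ± 30.2 against 83.1 ± 16.9 normalized counts (SD, n = 3 each) and a log2 fold change of 2.04, while Tyrobp and Cd3e were listed at 0. Of 10 fibroblast genes, 3 were compared, with a sum of 559 to 739 normalized counts in T1 libraries and 2142 to 2668 in T2 libraries, while Col3a1, Pdgfrb, Lum and Thy1 were listed at 0 in all libraries. The sum in T2 cells came mostly from Col6a1 and from Pdgfra, the gene of the antigen used to sort the culture of origin, with means of 1235 and 1099 normalized counts. Col1a1, the other compared gene, went the opposite way, with 69 reads over the T1 libraries against 1 over the T2 libraries and a log2 fold change of 4.17. Col1a2, below the filter, had 23 reads against 0. Of 11 epithelial genes, 8 were compared, 5 were higher in T1 cells and none was lower (62.5% called, background 49.5%). Epcam had a log2 fold change of 6.46. The 4 with the largest changes were Krt14, Krt19, Cldn4 and Krt7. Their T1 means were 3795, 3177, 5530 and 33024 normalized counts, and their T2 means 3.04, 2.91, 5.29 and 274. Krt8 and Krt18, outside the naming rule, had 22067 ± 1097 and 23275 ± 2627 normalized counts in T1 cells. In T2 cells they had 19195 ± 1606 and 21658 ± 1762 (SD, n = 3 each), and neither passed. Krt8 and Krt18 were thus abundant in both populations, unlike the 4 genes with the largest changes. The part of these differences in the cadherin values was not tested.

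Among the genes whose pattern was most like that of Cdh1, by Euclidean distance over the 6 samples of centred log2 values, were Gm15910, Actr3b, Gcnt1 and Atp8b1, at distances of 0.186 to 0.327. These 4 had no read in the T2 libraries and means of 27.8 to 31.8 normalized counts in T1 cells. Their likeness to Cdh1 therefore rests on the pseudocount.

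The surroundings of the Cdh1 and Cdh17 genes were described after the values were seen. Within 1000 kb of Cdh17, 16 genes were compared, 4 of which were higher and 5 lower in T1 cells (56.2% called, background 49.5%). The nearest compared gene before it, Gem, a small GTP-binding protein 43.4 kb away, had 6.84 ± 6.90 normalized counts in T1 against 1933 ± 190 in T2 cells (SD, n = 3 each), which gave a log2 fold change of -8.29. The nearest after it, Pdp1, a mitochondrial phosphatase 140 kb away, had 233 ± 32.8 and 3103 ± 560, a log2 fold change of -3.72. Cdh17 and both these neighbours were lower in T1 cells. Further out the directions were mixed: Esrp1, 371 kb before Cdh17, was higher in T1 cells with 9.11, whereas Tmem67, 221 kb after it, and Trp53inp1, 584 kb before it, were lower with -1.64 and -1.02.

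Within 1000 kb of Cdh1, 42 genes were compared, 19 of which were higher and 6 lower in T1 cells (59.5% called, background 49.5%). The nearest compared gene, Tango6, 12.8 kb after Cdh1, had a log2 fold change of 0.52 that did not pass (adjusted p = 0.0231, limma). The nearest before it, Zfp90, 177 kb away, had 0.15 and did not pass either (adjusted p = 0.335, limma). Has3, a hyaluronan synthase and the next compared gene after it, went the other way, with 17.6 ± 4.12 normalized counts in T1 against 921 ± 84.8 in T2 cells (SD, n = 3 each), which gave a log2 fold change of -5.65. Esrp2, the relative of Esrp1, lies 466 kb before Cdh1 and was higher in T1 cells with 3.26.

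**Figure D4:**
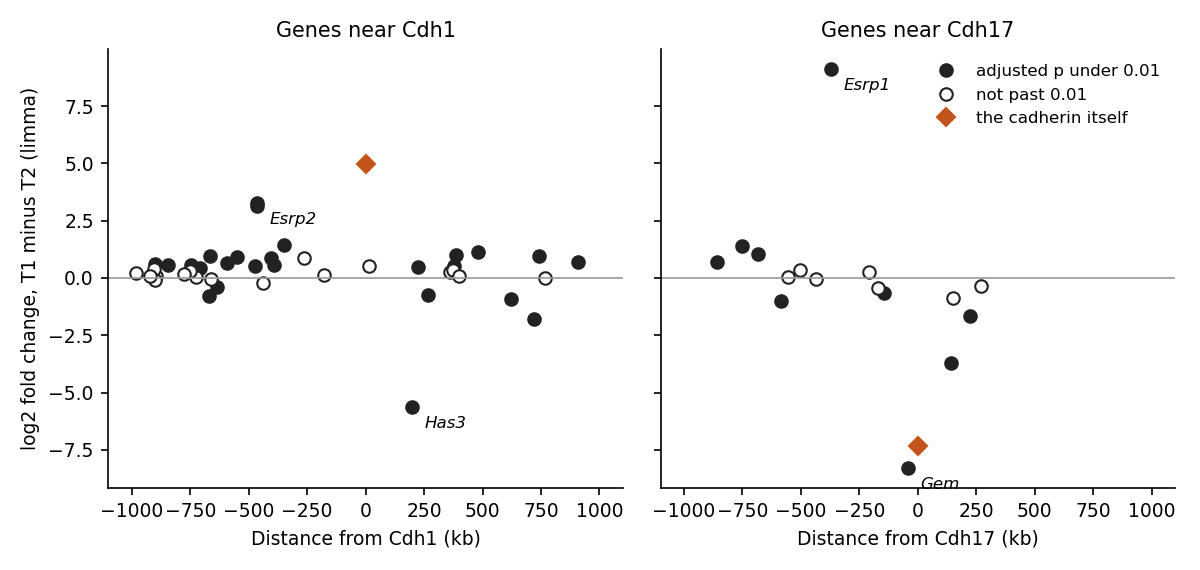
Log2 fold change, T1 minus T2 (vertical axis, limma), of compared genes by their distance in kb from Cdh1 (left) or Cdh17 (right), with filled points where the adjusted p-value passed 0.01 and an orange diamond for the cadherin. Gem lies beside Cdh17 at a similar value, whereas Has3 lies far below Cdh1.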

How the data were processed

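RNA sequencing values of 3 T1 and 3 T2 samples were used, grouped by their titles. The authors trimmed reads with Trimmomatic, used TopHat2 for alignment to mm10, HTSeq for gene counts and DESeq2 for normalization. The deposited signal is thus the reads of a gene over a size factor of the sample. Versions, annotation and strand setting are not given in the sources used here. Columns left unused numbered 0. Within 0.01 reads, 100% of the values were whole reads after multiplication by the size factor, and depth was 18133227 to 20839686 reads per sample. The floor of 3 reads covers counting error only.

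Genes with a mean of at least 10 were compared in limma 3.58.1 (R 4.3.3), after taking log2(normalized count + 1), using a variance trend and Benjamini-Hochberg adjustment over all of them. The thresholds of the study were kept. In simulated counts with the gene means and depths of these samples, 200 of 11470 genes were changed, and limma found 200 and called 1 other. Every changed gene was given the same size of change, larger than that of any catenin family gene compared here. The spread between simulated replicates was a fixed setting and was not estimated from these samples. The simulation therefore does not show how changes as small as those of Ctnnb1 and Ctnnd1 are called. How these counts depend on the size of a change or on the share of genes changed was not tested. As alternatives, edgeR 4.0.16 (quasi-likelihood) and DESeq2 1.42.0 were run on the recovered reads, calling 5716 and 6067 genes against 5701 for limma. Other alternatives were the pseudocount, the filter, quantile normalization, no variance trend, leaving out each replicate, and a block for replicate number. Single values were compared by exact permutation. Positions and exonic lengths came from GENCODE M21 on the same build.

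The members and gene lists were chosen with earlier results of these data known, so no list was tested as a set. Named were all members, the 4 genes per list with the largest change past the threshold, the reference genes Jup, Vcl, Axin2, Snai2, Zeb1 and Epcam, and the 5 genes most like Cdh1, 1 of which is not reported here. Figures were drawn with matplotlib 3.10.9.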

Additional observations from a re-analysis of the deposited data

How the results depend on the processing

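All 6 compared cadherin and catenin genes kept their direction and their side of the threshold under every alternative run, and 5 were called in each. The log2 fold change of Ctnnb1 stayed between -0.50 and -0.37, that of Ctnnd1 between -0.44 and -0.35, and that of Cdh17 between -7.78 and -6.80. The count of other catenin family genes was 2 under quantile normalization, against 1. That of the destruction complex was 2 without the variance trend and 2 to 6 with a replicate left out, against 6. With coding length in place of exonic length the catenin to cadherin ratio was 2.42 in T1 and 20.2 in T2 cells. Over all Cdh genes, Cdh1 took 95.3% in T1 and 19.5% in T2 cells, Cdh17 took 66.3% in T2 cells, and the T2 ratio was 13.4. With Cdh17 left out of the 6 cadherins, a choice made after seeing the data, the T2 ratio was 68.5, and Cdh24 was not counted there. Samples of the same replicate number deviated together with correlations of 0.0575, 0.172 and 0.104 over genes. Those of different number had correlations from -0.152 to 0.0719, so the same-number values lay mostly above the others. The numbers were not taken as pairs in the main fit. With the replicate number as a block 5780 genes were called in all, 967 of them past both filters, and 5 of the cadherins and catenins. At this depth Cdh3 and the cadherins listed at 0 could not be compared.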

Other observations

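Giant cadherins and protocadherins are relatives of the classical cadherins. Of 30 listed genes, 28 were in the table, 10 of these had no read and 10 had reads but lay below the filter on low values. Of the 8 compared, 3 were higher and 1 lower in T1 cells (50% called, background 49.5%). Celsr1, a planar cell polarity cadherin, had 577 ± 211 normalized counts in T1 against 5.54 ± 0.624 in T2 cells (SD, n = 3 each), which gave a log2 fold change of 6.40 (adjusted p = 4.22e-08, limma). Pcdh18 went the opposite way, with 1.74 ± 2.22 and 208 ± 11.8, a log2 fold change of -6.59 (adjusted p = 2.12e-06, limma). Pcdh1 and Celsr2 were higher in T1 cells with log2 fold changes of 1.28 and 0.81, of which that of Celsr2 did not pass without T1 replicate 3 (adjusted p = 0.0147), without T2 replicate 3 (0.0207) or without the variance trend (0.0101). Fat1, a giant cadherin, had a log2 fold change of -0.05 (adjusted p = 0.620, limma), and was named after its values were seen.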
